A study of Mus musculus with 36 samples.

Results

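The genes described here are 10 transcripts by which astrocytes are usually recognised: the glutamate transporters Slc1a2 and Slc1a3, the gap junction, water and membrane proteins Gja1, Gjb6, Aqp4 and Mlc1, the enzymes Aldh1l1, Aldoc and Acsbg1, and the filament protein Gfap. They were taken by symbol from both deposited tables of mouse striatal RNA, and all 10 were found, among 22560 genes with values in the table of 20 libraries and 22380 genes in the table of 15. The libraries came from translating ribosome affinity purification (TRAP), in which a green fluorescent tag on ribosomal protein L10a lets antibodies collect the ribosomes of a chosen cell type. Each pull-down was accompanied by libraries of unbound RNA, the striatal RNA that the antibodies left behind, so astrocyte transcripts were not the target of any pull-down and were measured in both fractions. No library was made from purified astrocytes.

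The table of 20 held microglial pull-downs and unbound RNA of mice with the genotype Camk2a-tTA; TetO-Chrm3 or TetO-Chrm4; Cx3cr1CreErt2/+(Litt); Eef1a1LSL.eGFPL10a/+. In these mice a tetracycline transactivator under the Camk2a promoter, active in forebrain excitatory and striatal neurons, drives a designer receptor, while tamoxifen, given at 4 to 6 weeks of age, switches on the ribosome tag in cells that express Cx3cr1. The receptor derived from Chrm3 couples to excitation and the one from Chrm4 to inhibition when their ligand clozapine-N-oxide (CNO) is given. Mice received saline or CNO and tissue was taken 2 h later, which gave 3 libraries per group and fraction for Chrm3 and 2 for Chrm4. No group received CNO without a designer receptor, so an effect of CNO itself cannot be told apart from that of the receptor within a line. The table of 15 held pull-downs from dopamine D1 receptor neurons of Drd1-eGFPL10a mice and their unbound RNA. It had 4 control and 3 IL34-KO pull-downs with 4 and 4 unbound libraries. The source label of this line reads Il34-/- for the controls as well, and Drd1-Cre is added for the mice labelled IL34-KO. The labels do not say whether replicates were separate animals, so the p-values below measure the spread between these libraries, which may in part be technical.

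Astrocytes clear glutamate from synapses through SLC1A2 (GLT-1) and SLC1A3 (GLAST), share ions and metabolites through gap junctions of connexin 43 and connexin 30, and hold water channels at their end-feet on blood vessels. The striatum holds mainly spiny projection neurons, among which astrocytes, oligodendrocytes and microglia are interspersed, and grey-matter astrocytes of this region are known for low Gfap. In a ribosome pull-down, transcripts of cells without the tag come along to a variable extent, so the level of an astrocyte gene there is a level in the pull-down and not in the tagged cell alone. In these bulk libraries, fewer astrocytes and less RNA of a gene per astrocyte cannot be told apart.

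The promoters of 2 members are shown here because their values stood apart in the results: Slc1a3, the only member called higher in the microglial pull-down than in unbound RNA, and Gjb6, whose level was low in a single library of each group of the D1 line. Both are RefSeq promoter windows on build GRCm38.p6, from 250 bases before the RefSeq start site to 50 after it, printed 5′ to 3′ on the minus strand. Capitals mark matches to the TATA box TATAAA, here on the opposite strand as TTTATA, to the GC box GGGCGG, and to the palindrome TTCNNNGAA that STAT factors bind. The motifs do not overlap each other in these windows. Slc1a3 lies at chr15:8710758-8711057 and its window has a GC content of 45.3%, and Gjb6 lies at chr14:57133562-57133861 with 57.3%, against a median of 52.7% over all 32851 promoter windows.
Slc1a3: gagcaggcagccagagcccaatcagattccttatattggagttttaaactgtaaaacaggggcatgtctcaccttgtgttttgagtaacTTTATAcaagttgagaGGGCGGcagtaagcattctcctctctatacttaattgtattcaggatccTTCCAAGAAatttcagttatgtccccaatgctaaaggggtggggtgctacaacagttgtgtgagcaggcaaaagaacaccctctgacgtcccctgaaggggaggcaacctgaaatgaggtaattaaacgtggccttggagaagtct
Gjb6: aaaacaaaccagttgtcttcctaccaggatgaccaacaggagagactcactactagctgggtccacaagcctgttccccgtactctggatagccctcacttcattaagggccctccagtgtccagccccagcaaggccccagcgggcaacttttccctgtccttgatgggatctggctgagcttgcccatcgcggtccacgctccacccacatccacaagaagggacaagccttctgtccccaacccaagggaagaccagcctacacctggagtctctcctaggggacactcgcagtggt

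The Gjb6 window holds none of the motifs searched on either strand. RefSeq windows were matched for 9 of the 10 members, in 10 windows since Aldoc has 2, and Aqp4 is only named. TTCNNNGAA was found in 4 of the 10 member windows, those of Acsbg1, Aldoc, Gfap and Slc1a3, and in 8.30% of all promoter windows. TTGGC, the short site of nuclear factor I, was found in 4 member windows (Acsbg1, Aldoc, Mlc1 and Slc1a2) and in 46.7% of all windows. GGGCGG was found in 3 (Aldh1l1, Aldoc and Slc1a3) against 35.7%, and TATAAA in 1 (Slc1a3) against 13.6%. The full nuclear factor I palindrome (the short site and, after a short gap, its reverse complement) and the glucocorticoid response element were in none of the member windows, and in 0.0365% and 0.475% of all. These matches describe the letters of the windows and nothing was drawn from them about binding.

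By GENCODE M21 on GRCm38, Slc1a2 lies at chr2:102658659-102790784 on the plus strand, Slc1a3 at chr15:8634124-8710764 on the minus strand, Gja1 at chr10:56377330-56402513 on the plus strand and Gjb6 at chr14:57123303-57133611 on the minus strand. Aqp4 lies at chr18:15389496-15410982 (minus), Mlc1 at chr15:88955884-88979007 (minus), Aldh1l1 at chr6:90486427-90600203 (plus), Aldoc at chr11:78322968-78327781 (plus), Acsbg1 at chr9:54604877-54661870 (minus) and Gfap at chr11:102887336-102900912 (minus). The deposited values are sums over a whole gene, so exons, introns and untranslated regions are not told apart.

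Levels are given in RPKM, read counts divided by gene length and library size, as the authors deposited them. Libraries held 12.1 to 109 M reads in genes (table of 20) or 11.3 to 41.1 M (table of 15), and depth moved with treatment in the unbound Chrm4 RNA, at 106 to 109 M reads after CNO and 20.5 to 23.6 M reads after saline. The pulled-down cell types carried their defining transcripts: Cx3cr1 ranged from 168 to 258 RPKM in microglial pull-downs and from 0.976 to 2.22 in unbound RNA, and the D1 receptor gene, listed as Drd1a, from 132 to 275 RPKM in D1 pull-downs and from 28.7 to 56.8 in unbound RNA. Il34 itself was not lower in the pull-downs labelled IL34-KO, at 9.84 to 11.1 RPKM, than in the control pull-downs, at 6.56 to 10.5, and values over the whole gene do not show whether single exons were deleted. These libraries are therefore called by their label. In the D1 table the library size behind the RPKM of unbound libraries was 1.66 to 1.93 times larger relative to their reads in genes than in pull-downs, which raises every gene in the pull-down against unbound RNA; in the table of 20 this factor ran from 0.993 to 1.02.

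Among the members, Slc1a2 was the most abundant in every group and Aldh1l1, the folate enzyme 10-formyltetrahydrofolate dehydrogenase, the least abundant by group means. In the 5 unbound libraries of saline-treated mice, Slc1a2 had a mean of 148 ± 12.8 RPKM (SD, n = 5) and Aldoc, the glycolytic enzyme aldolase C, 97.7 ± 12.1, and their ranges did not overlap. Next came Gja1 (13.6 ± 3.12), Slc1a3 (13.5 ± 1.66), Gjb6 (11.6 ± 1.94), Aqp4 (10.2 ± 2.82), Mlc1 (8.09 ± 1.66), Acsbg1 (6.86 ± 0.97) and Gfap (6.71 ± 1.72), each overlapping its neighbours in this order. Aldh1l1 stood below them all at 1.5 ± 0.167 RPKM. In the unbound RNA of the D1 controls Slc1a2 (227 to 232 RPKM), Aldoc (63.7 to 79.2) and Slc1a3 (16.7 to 19.1) again formed 3 separate steps, while Gja1, Aqp4, Gjb6, Mlc1 and Acsbg1 overlapped between 5.35 and 15, and Gfap (2.64 to 4.11) and Aldh1l1 (1.67 to 1.95) stood below them. The levels of the 2 tables were normalised separately and are set side by side without a test. Reads behind these values ran from 7506 to 239622 per library for Slc1a2 but from 30 to 1009 for Aldh1l1 and from 38 to 3438 for Gjb6, so the last 2 carried the largest counting error in single pull-downs.

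**Figure D1:**
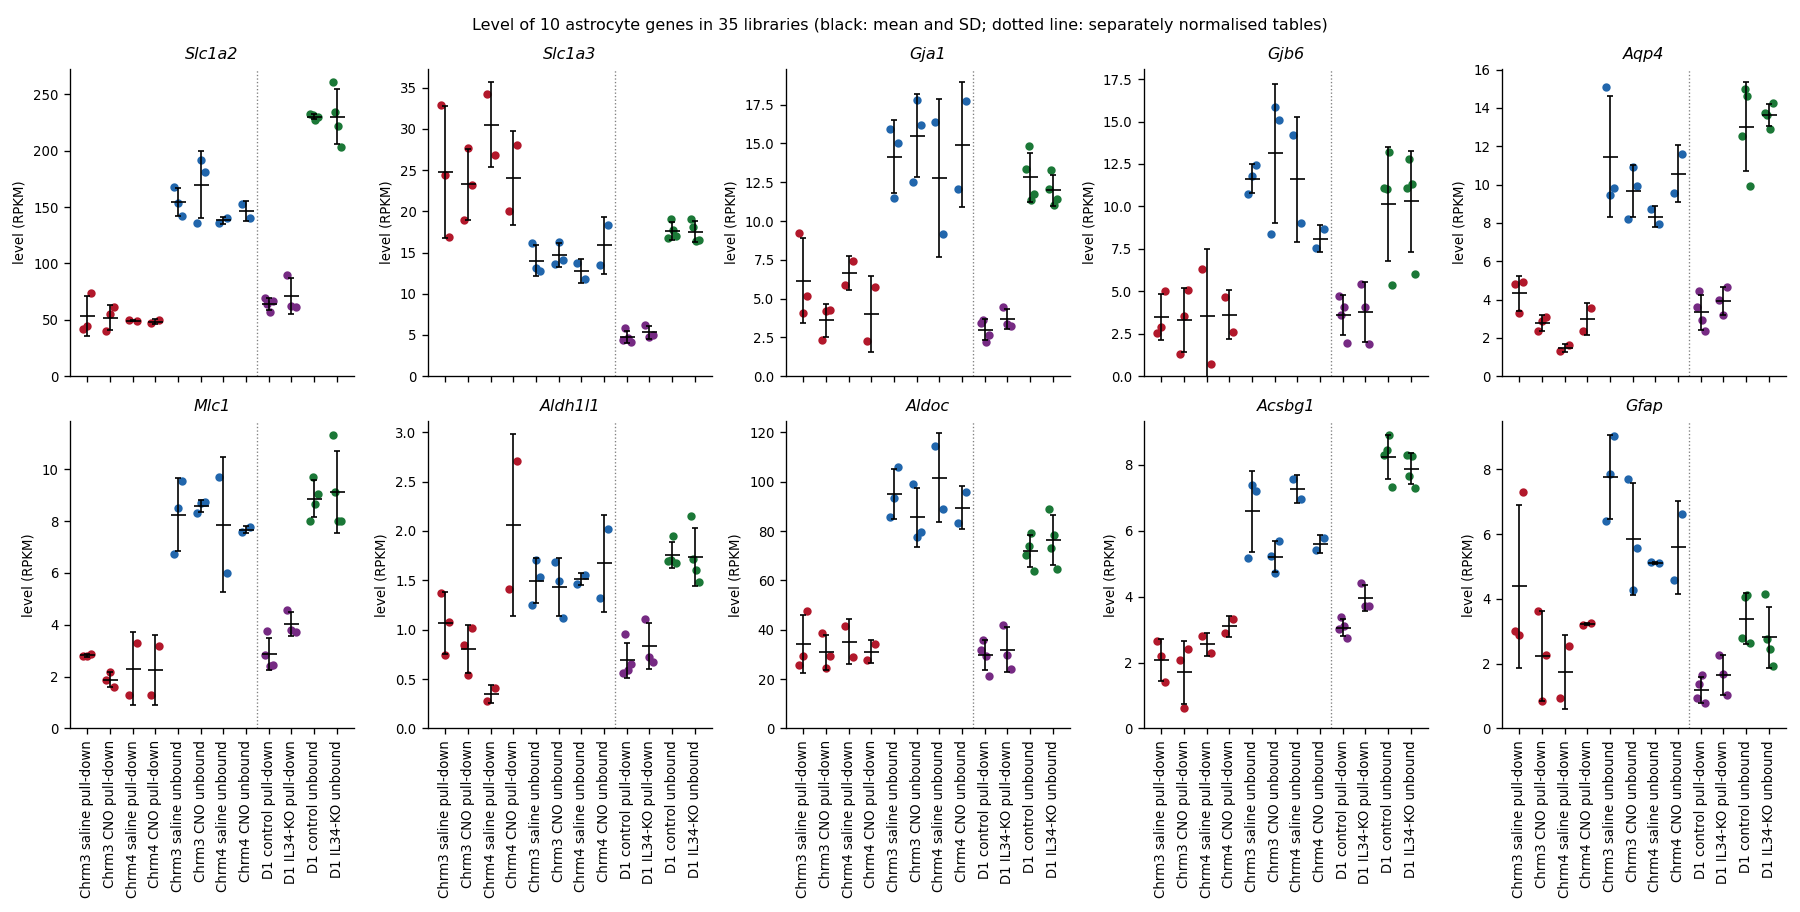
RPKM of each of the 10 genes (vertical axis, scaled per gene) in each of the 35 libraries (points) by group, with group means and SDs in black; red points are microglial pull-downs, blue and green points unbound RNA, purple points D1 pull-downs, and the dotted line separates the tables. Slc1a3 is the panel in which the red points (16.9 to 34.2 RPKM) lie mostly above the blue points (11.7 to 18.3 RPKM).

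The comparison of microglial pull-downs with unbound RNA asks which transcripts accompany microglial ribosomes. Of the members, 9 were lower in the pull-down and 1, Slc1a3, was higher, and all 10 passed an adjusted p of 0.05 in limma fits over 11721 genes (Benjamini-Hochberg; log2 of RPKM + 1; 5 saline pull-downs against 5 saline unbound libraries). The fit held all 20 libraries of the table, so those given CNO also entered the spread behind its errors and p-values. This test called 33.4% of all genes lower and 32.1% higher, so a call by itself is common here. How many of all genes had fractions without overlap was not counted, so the overlaps given below describe single genes only. The median change of the members was -1.31 against -0.02 for all genes tested.

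The glutamate transporters went in opposite directions. Slc1a2 was 41.8, 44.4 and 74.0 RPKM in the saline pull-downs of Chrm3 mice and 49.5 and 49 in those of Chrm4 mice, against 168, 154 and 142 RPKM and 136 and 141 RPKM in the unbound RNA. The pull-downs did not overlap with the unbound libraries, and the change was -1.52 ± 0.146 (log2, standard error; limma adjusted p = 2.55e-08). Slc1a3 was 33.0, 24.4 and 16.9 RPKM and 34.2 and 26.9 RPKM in the same pull-downs, against 16.2, 13.2 and 12.7 RPKM and 13.8 and 11.7 RPKM in the unbound RNA. Every saline pull-down exceeded every saline unbound library for Slc1a3, the third Chrm3 library (16.9 RPKM) only narrowly, and the change was 0.92 ± 0.164 (limma adjusted p = 6.9e-05), a 1.89-fold higher level on the scale of RPKM + 1. After CNO, Slc1a3 was 19, 27.6 and 23.2 RPKM in Chrm3 pull-downs and 20 and 28.1 in Chrm4 pull-downs, against 13.6, 16.3 and 14.1 RPKM and 13.4 and 18.3 RPKM unbound. Over all 20 libraries its fractions overlapped, through the third saline Chrm3 pull-down at 16.9 RPKM and a Chrm4 CNO unbound library at 18.3 RPKM.

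Among the channel and membrane genes, Gja1, which encodes connexin 43, was 6.36 ± 2.02 RPKM in saline pull-downs and 13.6 ± 3.12 unbound (SD, n = 5 each), a change of -1.0 ± 0.231 (limma adjusted p = 0.000865). Its highest pull-down (9.25 RPKM) just exceeded its lowest unbound library (9.19 RPKM). Gjb6, which encodes connexin 30, was 3.50 ± 2.19 against 11.6 ± 1.94 RPKM (-1.64 ± 0.323, limma adjusted p = 0.000194), with a Chrm4 saline pull-down at 0.721 RPKM. Aqp4, the end-foot water channel, was 3.19 ± 1.70 against 10.2 ± 2.82 RPKM (-1.49 ± 0.161, limma adjusted p = 1.27e-07). Mlc1, an end-foot membrane protein mutated in a human leukoencephalopathy with cysts, was 2.61 ± 0.761 against 8.09 ± 1.66 RPKM (-1.34 ± 0.193, limma adjusted p = 5.28e-06). For Gjb6, Aqp4 and Mlc1 the fractions did not overlap.

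Of the enzymes, Aldoc was 34.7 ± 9.51 RPKM in saline pull-downs against 97.7 ± 12.1 unbound (-1.50 ± 0.163, limma adjusted p = 1.4e-07), and Acsbg1, an acyl-CoA synthetase for long fatty acids, was 2.27 ± 0.547 against 6.86 ± 0.970 RPKM (-1.27 ± 0.191, limma adjusted p = 9.39e-06), both without overlap. Aldh1l1 was 1.37, 0.747 and 1.08 RPKM in Chrm3 and 0.281 and 0.410 RPKM in Chrm4 saline pull-downs, against 1.25, 1.71 and 1.53 RPKM and 1.47 and 1.55 RPKM unbound. Its fractions overlapped in the highest pull-down, the change was -0.53 ± 0.175 (limma adjusted p = 0.0125), and the call was lost without the first Chrm4 saline pull-down (-0.42, limma adjusted p = 0.0528). In voom on recovered reads the change was -1.02 ± 0.409 and was called, and over all alternatives it ran from -0.42 to -1.03. Gfap was 3.01, 2.87 and 7.30 RPKM in Chrm3 and 0.943 and 2.56 RPKM in Chrm4 saline pull-downs, against 6.41, 7.87 and 9.02 RPKM and 5.14 and 5.10 RPKM unbound (-0.96 ± 0.258, limma adjusted p = 0.00309), with the 7.30 RPKM library inside the unbound range.

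The third Chrm3 saline pull-down stood apart. It was the highest of its group in 6 members and the lowest in Slc1a3 and Acsbg1, and it had the lowest summed level of 12 microglial markers (6461 RPKM, against up to 9486 RPKM in the other pull-downs) and the highest sum of 13 oligodendrocyte markers (484 RPKM, against 188 to 299 RPKM). Without it all 10 members were still called, with Slc1a2 at -1.66, Slc1a3 at 1.07 and Gfap at -1.23. The pull-downs were not free of other cells' transcripts: Mbp of myelin ranged from 11.6 to 41.3 RPKM there, Snap25 and Syt1 of neurons from 348 to 714 and from 22.1 to 38.9 RPKM, and no marker of these lists was at 0 in any of them. Over the marker lists, 12 of 13 oligodendrocyte, 8 of 11 neuronal and 7 of 8 oligodendrocyte precursor genes were called lower in the pull-down, with medians of -1.49, -1.50 and -1.68, beside the -1.31 of the members. The other 3 neuronal genes, the neurofilament genes Nefl (1.24), Nefm (0.47) and Nefh (0.48), and 1 precursor gene, Cspg4 (1.26), were called higher. The summed oligodendrocyte markers ranged from 188 to 484 RPKM in the microglial pull-downs and from 632 to 1090 in their unbound RNA. The part of such co-purified RNA in the members' pull-down levels was not tested.

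**Figure D2:**
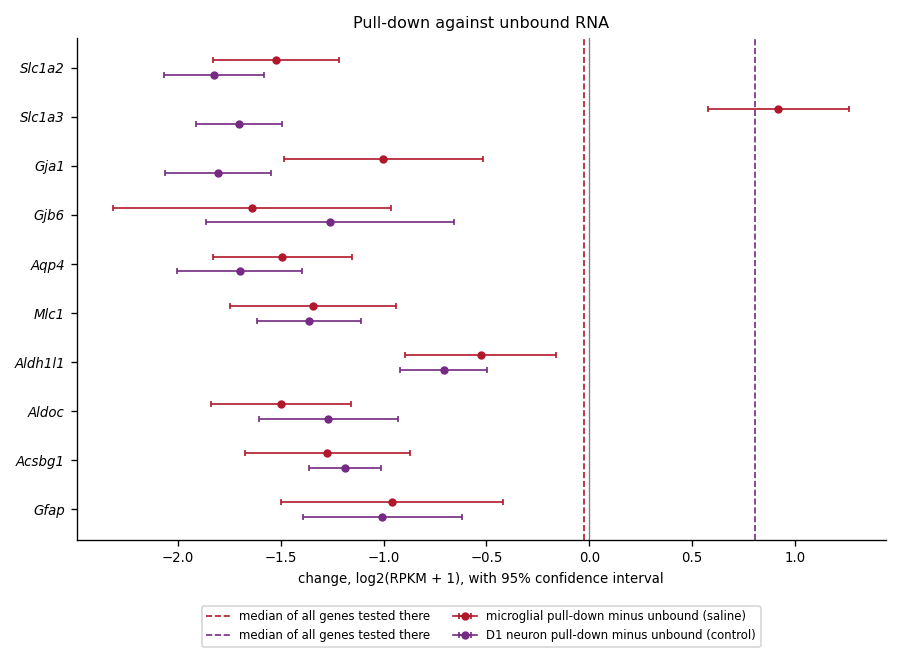
Change between pull-down and unbound RNA for each gene (horizontal axis, log2 of RPKM + 1, points with 95% confidence intervals) in saline microglial libraries (red) and D1 control libraries (purple), with dashed lines at the median of all genes tested in the same colour. Slc1a3 lies at 0.92 in red and at -1.70 in purple, while the other 9 genes lie below 0 in both.

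In the D1 line, all 10 members were lower in the D1 neuron pull-down than in unbound RNA, where 6.84% of 10266 genes were called lower (4 control pull-downs against 4 control unbound libraries). As deposited this comparison is shifted upwards, with a median of 0.81 for all genes and 92.5% of the called genes higher, for the library-size factor given above. Under size factors the share of called genes that were higher was 49%, under quantile scaling 61.2%, and in a voom fit on recovered reads 64.1%. The members' median was -1.31 as deposited, -2.17 with size factors, -2.14 with quantile scaling and -2.42 with voom, and all 10 were lower and called under each.

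Slc1a2 was 69.0, 64.4, 57.1 and 67.0 RPKM in the control D1 pull-downs and 232, 231, 227 and 230 RPKM unbound (-1.83 ± 0.115, limma adjusted p = 6.95e-10). Slc1a3 was 4.40, 5.82, 4.64 and 4.16 RPKM in the pull-downs against 16.7, 19.1, 17.7 and 17 RPKM unbound (-1.70 ± 0.0987, limma adjusted p = 3.91e-10), so here both transporters were lower to a like extent. Relative to the median of all genes these changes were -2.63 and -2.51. For the other members the changes as deposited were -1.80 (Gja1), -1.26 (Gjb6), -1.70 (Aqp4), -1.36 (Mlc1), -0.71 (Aldh1l1), -1.27 (Aldoc), -1.19 (Acsbg1) and -1.01 (Gfap), and -1.51 to -2.61 relative to the median of all genes. The control fractions did not overlap for any member, and with the libraries labelled IL34-KO added, those of Gjb6 and Gfap did. The share of all genes without overlap was not counted, and 91.7% of all genes were called either way as deposited. Markers of other glia were lower alongside: all 13 oligodendrocyte genes (median -1.75) and all 9 tested microglial genes (median -1.26) were called lower. Of all genes 6.84% were called lower as deposited, a share that the upward shift makes smaller. All 11 neuronal genes were called higher (median 1.35), but so were 84.8% of all genes as deposited. Of 11 genes of spiny projection neurons, 8 were called higher and 3 lower, the latter being Penk, Drd2 and Adora2a, markers of the spiny neurons that carry the D2 receptor.

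The ratio of Slc1a2 to Slc1a3 within a library does not depend on that library's scaling. It was 1.27, 1.82 and 4.37 in the saline and 2.09, 1.98 and 2.64 in the CNO pull-downs of Chrm3 microglia, 1.45 and 1.82 in the saline and 2.35 and 1.77 in the CNO pull-downs of Chrm4 microglia. In the unbound RNA of these mice it ranged from 7.65 to 12.9, without overlap with the pull-downs. In the D1 line it ranged from 11.1 to 16.1 in pull-downs and from 12.1 to 13.9 in unbound RNA, so those fractions overlapped. The gap junction pair behaved differently: Gja1 to Gjb6 ranged from 0.489 to 10.3 in microglial pull-downs, around a range of 0.977 to 2.05 in their unbound RNA, and the extreme of 10.3 came from the pull-down with 0.721 RPKM of Gjb6.

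**Figure D3:**
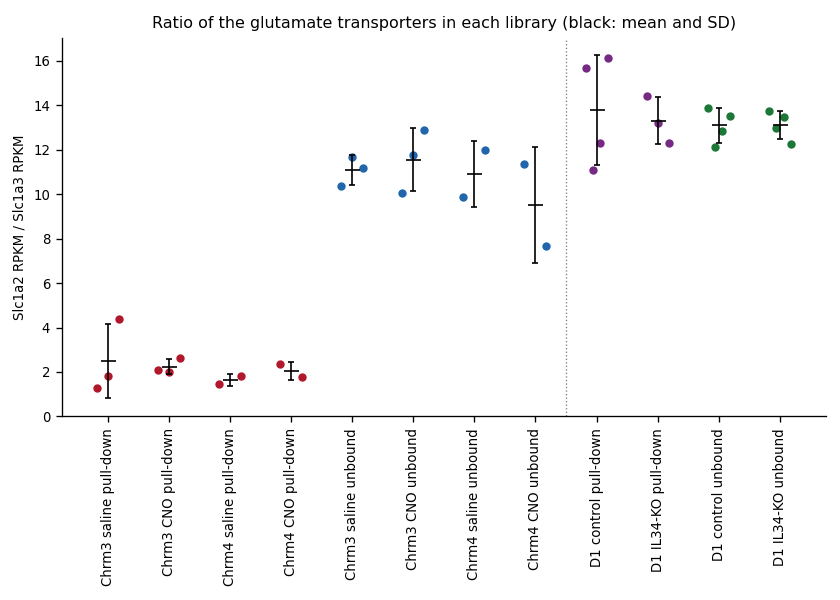
Slc1a2 RPKM divided by Slc1a3 RPKM (vertical axis, linear) in each library (points), with group means and SDs in black. Microglial pull-downs in red lie between 1.27 and 4.37, and all unbound libraries and D1 pull-downs lie between 7.65 and 16.1.

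The comparison of CNO with saline asks how 2 h of activation of the designer receptor in neurons changes RNA in microglia and in the surrounding tissue. No member was called in any of the 4 comparisons, nor in the differences between receptors or between fractions. In Chrm3 pull-downs all 10 members had a lower mean log2 level after CNO, with a median of -0.22 against -0.03 for all genes. The smallest limma adjusted p was 0.937, and 0.0436% of 11465 genes were called. None of the members had an unadjusted p under 0.05 in limma, beside 630 of all genes tested. In voom 4 members did and 0 were called, and the count over all genes in voom is not given. The members furthest from 0 were Gfap (-0.74 ± 0.408, 95% interval -1.61 to 0.13), Gja1 (-0.61 ± 0.349, -1.35 to 0.14) and Aqp4 (-0.49 ± 0.288, -1.11 to 0.13). Gfap went from 3.01, 2.87 and 7.30 RPKM to 3.61, 0.834 and 2.27 RPKM, and the groups overlapped. The common sign rested in part on single libraries, since 7 of 10 members stayed negative without the third saline pull-down, Slc1a2 then being at 0.24, Aldoc at 0.13 and Gjb6 at 0.10, and also 7 without the first CNO pull-down. All 12 tested oligodendrocyte markers had lower means after CNO in the same libraries (median -0.43), as had 10 of 11 spiny neuron markers (median -0.46). Of 11 neuronal markers 7 had higher and 4 lower means (median 0.11), and the oligodendrocyte precursor markers split into 4 and 4. None of these markers was called. Slc1a2 was 41.8, 44.4 and 74.0 RPKM after saline and 39.7, 54.8 and 61.2 RPKM after CNO (-0.02 ± 0.225, interval -0.50 to 0.46).

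In Chrm4 pull-downs, 0.0% of genes were called in limma, and 5 members had higher and 5 lower means. Aldh1l1 was the only member with an unadjusted p under 0.05 in limma (0.0139), beside 433 of 11465 genes. It was 0.281 and 0.410 RPKM after saline and 1.41 and 2.71 RPKM after CNO, with a change of 1.15 ± 0.412 (95% interval 0.27 to 2.03) that did not pass adjustment (limma adjusted p = 0.999). Its mean over the 10 pull-downs was 1.04 RPKM, narrowly over the filter of 1 RPKM. Without the second Chrm4 CNO pull-down only 9 members were tested and Aldh1l1 was not, so the high group itself carried it over the filter. In voom 1 member had an unadjusted p under 0.05 and none was called. The difference between the Chrm3 and Chrm4 responses in pull-downs was -1.16 ± 0.456 for Aqp4, -1.35 ± 0.532 for Aldh1l1 and -1.43 ± 0.646 for Gfap, each with an unadjusted p under 0.05 in limma and none called (0.0% of all genes). Over all genes, 452 of 11465 had such a p in limma, and the Aldh1l1 value has the limit just given. In voom 3 members had such a p and none was called.

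In unbound RNA of Chrm3 mice the standard errors of the members' changes ran from 0.124 to 0.213, against 0.225 to 0.491 in Chrm3 pull-downs. After CNO in Chrm3 mice, 5 members had higher and 5 lower means, the smallest limma adjusted p was 0.451, and 0.701% of 11123 genes were called. Slc1a2 was 168, 154 and 142 RPKM after saline and 136, 192 and 182 RPKM after CNO (0.12 ± 0.124, 95% interval -0.15 to 0.39). Gfap was 6.41, 7.87 and 9.02 RPKM after saline and 7.72, 4.29 and 5.58 RPKM after CNO (-0.37 ± 0.193, interval -0.79 to 0.05), and Acsbg1 5.18, 7.39 and 7.21 against 5.25, 4.72 and 5.69 RPKM (-0.28 ± 0.144, interval -0.59 to 0.04). The groups overlapped for all 3 genes. In Chrm4 mice 7 members had higher and 3 lower means, with 0.0% of genes called, and depth differed between the treatments as given above. The difference between receptors was called for 0.0539% of genes in unbound RNA, and the differences of the response between pull-down and unbound RNA for 0.00853% (Chrm3) and 0.0% (Chrm4), in each case for none of the members. Unadjusted p-values under 0.05 came to 0 of 10 members in limma for Chrm3 and Chrm4 unbound RNA, for their difference and for the Chrm3 difference of fractions, and to 1 (Aldh1l1, 1.08 ± 0.391) for the Chrm4 difference of fractions. Over all genes such p-values in limma came to 1381, 559 and 794 of 11123, and to 477 and 521 of 11721, in this order. In voom, which called none of the members either, p-values under 0.05 came to 1, 0, 1, 3 and 1 of the members.

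**Figure D4:**
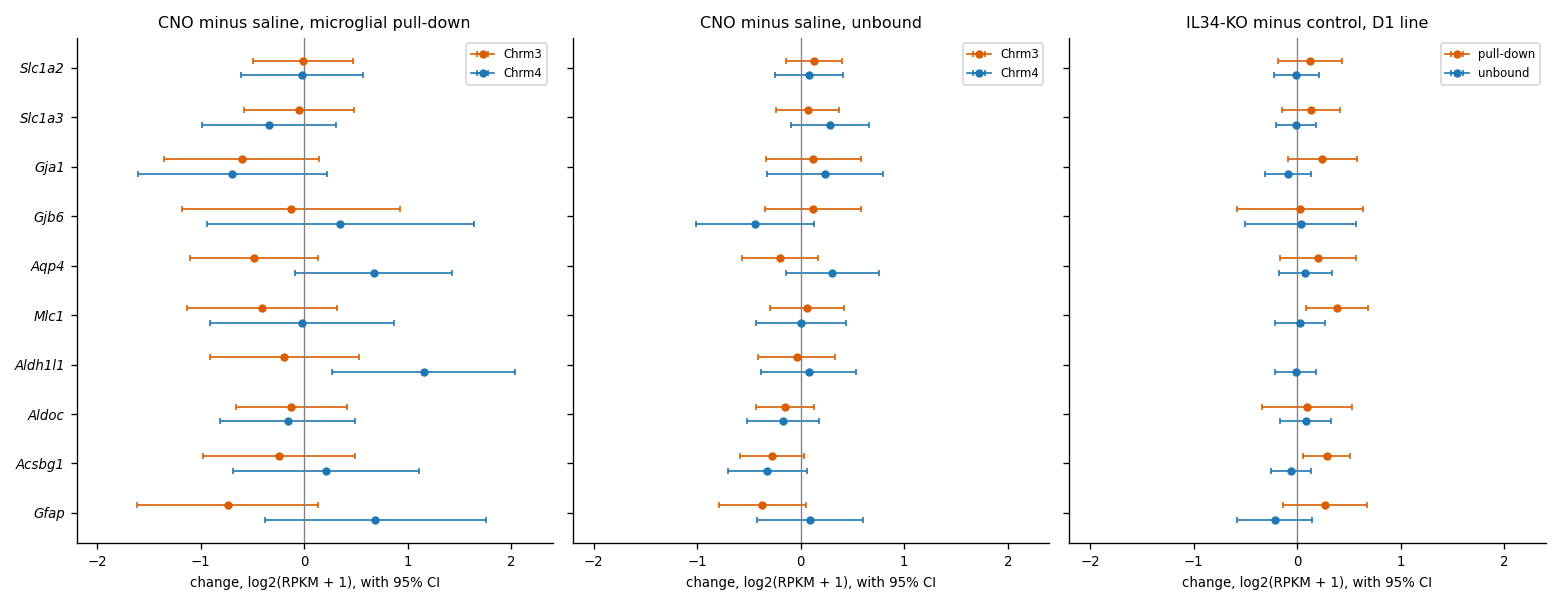
Change of each gene (horizontal axis, log2 of RPKM + 1, points with 95% confidence intervals) for CNO minus saline in microglial pull-downs and in unbound RNA, and for libraries labelled IL34-KO minus control in the D1 line. Intervals are widest in the microglial pull-downs. The interval of Aldh1l1 in Chrm4 pull-downs (0.27 to 2.03) and those of Mlc1 (0.09 to 0.69) and Acsbg1 (0.06 to 0.51) in D1 pull-downs exclude 0, and none of these passed adjustment. Aldh1l1 reached the filter on low values in the microglial pull-downs only with the second Chrm4 CNO library.

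Interleukin 34 is a ligand of the receptor Csf1r on which microglia depend, and libraries labelled IL34-KO were compared with controls in both fractions of the D1 line. In the D1 pull-downs 9 members could be tested, Aldh1l1 having a mean under 1 RPKM, and all 9 had higher means in the libraries labelled IL34-KO (median 0.20 against 0.03 for all genes), with none called beside 0.00957% of 10452 genes. Mlc1 was 2.84, 3.77, 2.41 and 2.46 RPKM in controls and 4.58, 3.78 and 3.72 RPKM in the libraries labelled IL34-KO (0.39 ± 0.135, 95% interval 0.09 to 0.69). Acsbg1 was 3.01, 3.38, 3.10 and 2.75 RPKM against 4.40, 3.73 and 3.71 RPKM (0.28 ± 0.103, interval 0.06 to 0.51). The groups did not overlap for Acsbg1, and those of Mlc1 overlapped in the second control library and the third library labelled IL34-KO. The share of all genes without overlap between these groups was not counted. These 2 genes had unadjusted p-values under 0.05 in limma, beside 160 of 10452 genes, and neither was called in limma or voom. The first pull-down labelled IL34-KO was the highest of its group in 9 of the 10 members, Aqp4 being the exception, and also in the summed oligodendrocyte markers (236 RPKM, against 136 to 184 RPKM in the other D1 pull-downs). Over the whole list, 11 of 12 tested oligodendrocyte markers had higher means in the pull-downs labelled IL34-KO (median 0.12), none called, and their part in the members' values was not tested. Without this library 6 of 9 members had higher means, with Gjb6 at -0.22, Aldoc at -0.11 and Slc1a2 at -0.05.

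In the unbound RNA of the D1 line, 4 members had higher and 6 lower means in the libraries labelled IL34-KO, with 0.0% of genes called and changes from -0.22 (Gfap) to 0.08 (Aldoc). No member had an unadjusted p under 0.05 in limma or voom, beside 87 of 9853 genes in limma. Slc1a2 was 261, 235, 222 and 203 RPKM there against 232, 231, 227 and 230 RPKM in controls (-0.01 ± 0.101, 95% interval -0.22 to 0.21), the means being alike and the spread wider. In the same unbound libraries the 12 microglial markers summed to 25.2 to 53.1 RPKM with the IL34-KO label and 53.9 to 64.9 RPKM in controls. These ranges did not overlap but came close, at 53.1 and 53.9 RPKM. All 11 microglial markers tested had lower means (median -0.52) and none was called. How many of all genes had groups without overlap was not counted. The difference between fractions was called for 0.0% of genes. Acsbg1 alone of the members had an unadjusted p under 0.05 in limma and in voom (0.34 ± 0.121), beside 100 of 10266 genes in limma.

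A list of 65 other astrocyte genes, all present in both tables, was described in the same fits. In the microglial comparison 54 of them were tested, 43 were called lower and 4 higher, with a median of -1.08. Among those with the smallest p were S100b, a calcium-binding protein (-2.33 ± 0.182), the adhesion protein Hepacam (-1.86) and the chaperone Clu (-1.73). The 4 called higher, like Slc1a3, were Glul, glutamine synthetase (0.96 ± 0.112), Phgdh of serine synthesis (0.74 ± 0.159), Apoe (0.74 ± 0.165) and the transcription factor Nfia (0.53 ± 0.131), named after their values were seen. In the D1 comparison 43 of 55 tested were called lower and 7 higher as deposited (median -0.98), among them Hepacam (-1.70), the potassium channel Kcnj10 (-1.63) and Gpr37l1 (-1.46). With the table rescaled, the counts were 51 lower and 0 higher (quantile), 50 and 1 (size factors) and 49 and 1 (voom).

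Of 31 genes reported in reactive astrocytes, 8 were expressed enough to be tested in the microglial comparison and 4 of them were called higher and 2 lower (median 0.66). Without the filter on low values, over all 31 genes, 7 were called higher and 9 lower (median -0.01), so the balance among the tested genes depended on the filter. Ggta1, a galactosyltransferase, ranged from 10.2 to 16.2 RPKM in the microglial pull-downs and from 0.121 to 0.751 RPKM in unbound RNA. It reached the mean of 1 RPKM only through the pull-downs, and its change of 3.39 ± 0.182 ran from 3.21 to 5.30 over the alternatives. Also called higher were the stress-induced chaperone Fkbp5 (2.27), the signal transducer Stat3 (1.18) and Cxcl10, an interferon-induced chemokine (1.54), whereas Amigo2 (-1.03, and -0.90 to -2.15 over the alternatives) and Serpina3n (-1.26) were lower. Cxcl10 and Serpina3n were named after their values were seen. In the D1 comparison 6 were tested, and S100a10 (1.24), Fkbp5 (0.92), Stat3 (0.44) and Amigo2 (0.42) were called higher as deposited and Vim (-0.34) lower. This split depended on scaling, with 1 higher and 1 lower by quantile scaling, 1 and 2 by size factors and 1 and 1 by voom, with Fkbp5 no longer called under any of them, Stat3 below 0 under all and Amigo2 below 0 with size factors and voom. Lcn2, a widely used reactive marker, was at most 0.329 RPKM in any library of the table of 20.

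Outside these fraction comparisons, 1 gene of both lists was called. Dio2, the type 2 deiodinase by which astrocytes make active thyroid hormone, was 11.7, 13.5 and 12.5 RPKM after saline and 21.7, 32.6 and 24.4 RPKM after CNO in the unbound RNA of Chrm3 mice. The groups did not overlap, which was not counted over all genes, and the change was 0.99 ± 0.163 (limma adjusted p = 0.0225). In this fit 78 of 11123 genes (0.701%) were called, and 59 and 6 genes of the 2 lists were tested. In Chrm4 mice it was 14.9 and 10.0 RPKM after saline and 11.3 and 12.5 RPKM after CNO (-0.04 ± 0.200), and the difference between the receptors, 1.03 ± 0.258, was not called (limma adjusted p = 0.27). The call in Chrm3 mice was lost in 5 of 14 alternatives, with an adjusted p of 0.219 without the filter on low values and of 0.0905, 0.107, 0.0694 and 0.0962 without the first saline, the third saline, the second CNO or the third CNO library. The change itself stayed between 0.83 and 1.03 in these 5.

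Over 10074 genes measured in both tables, the mean standardised level of the members correlated across libraries closely with Mbp, Tspan2, Olig1 and Hepacam, with the lower of the Pearson coefficients of the tables at 0.977, 0.977, 0.973 and 0.968 (20 and 15 libraries, no p-value given). Pull-down and unbound libraries form separate clusters in these values. With each value taken as its deviation from its group mean, the closest were Tnfaip6 (0.786), Mbp (0.772), Olig1 (0.765) and Mobp (0.759). Hepacam is an astrocyte gene, while Mbp and Mobp encode myelin proteins and Olig1 an oligodendrocyte transcription factor. All genes of a library share its scaling and depth, which differ between libraries, so the coefficients are a description.

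Gjb6 had a single low library in each group of the D1 line, as seen after its values were known. In the control pull-downs it was 4.73, 3.63, 4.05 and 1.96 RPKM, in the control unbound RNA 11.1, 11, 13.2 and 5.35 RPKM, in the pull-downs labelled IL34-KO 5.43, 4.06 and 1.9 RPKM and in their unbound RNA 11.1, 12.8, 11.3 and 6.01 RPKM. In each group a single library lay at 0.473, 0.455, 0.4 and 0.512 of the mean of the others, in this order. Of 10265 genes, Aldh1a1, a retinaldehyde dehydrogenase, and Tsc22d3, a glucocorticoid-induced gene also called Gilz, followed Gjb6 most closely in deviations from group means (Pearson 0.974 and 0.952 over 15 libraries, and 0.4 and 0.509 in the other table). Of the 9 members other than Gjb6, these libraries were the lowest of their group for 5 in the control pull-down, the control unbound RNA and the unbound RNA labelled IL34-KO, and for 7 in the pull-down labelled IL34-KO. Aldh1a1 and Tsc22d3 were picked for following Gjb6 in these libraries, so their low values there are no separate observation. In the same 4 libraries Aldh1a1 was at 0.441 to 0.570 and Tsc22d3 at 0.318 to 0.546 of the mean of the others. Further down this order stood Rhpn2, Rrp8, Mettl7a1, Skap2, Pdk4 and Rhou. Their coefficients in the other table were 0.321, -0.432, 0.617, 0.0142, 0.0555 and 0.620, so those of Rrp8, Skap2 and Pdk4 did not recur there. The labels give no batch, day or animal for these libraries, and the part of such factors in the low values was not tested.

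**Figure D5:**
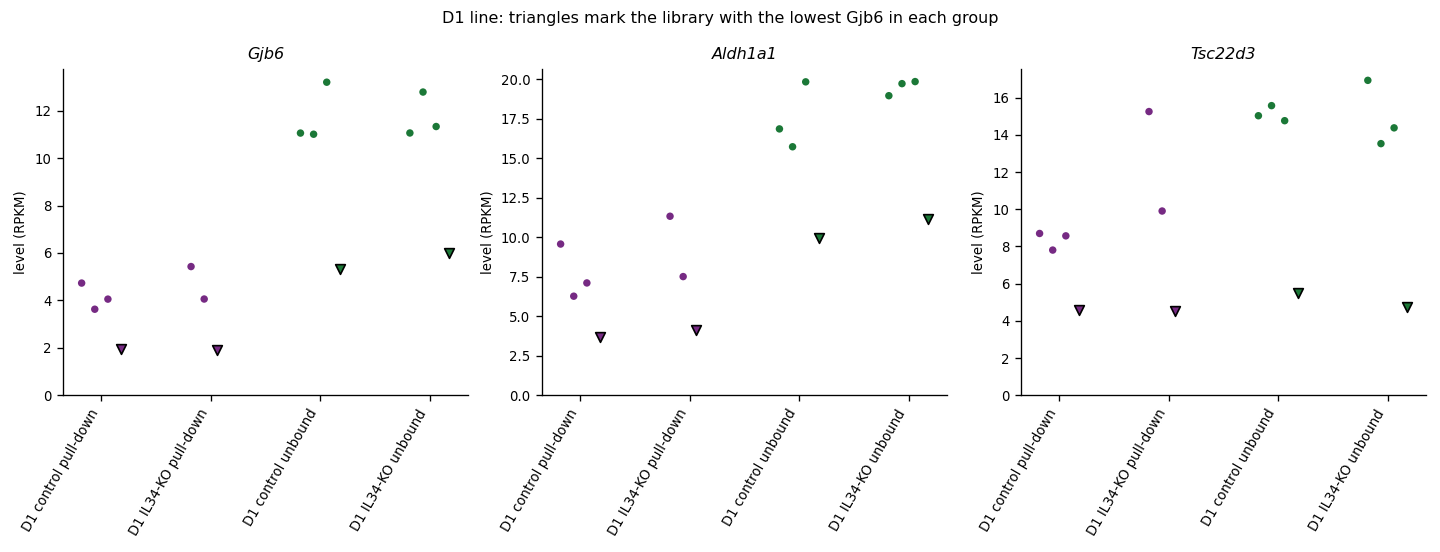
RPKM of Gjb6, Aldh1a1 and Tsc22d3 (vertical axes, linear from 0) in the 15 libraries of the D1 line by group, with pull-downs in purple and unbound RNA in green. Triangles mark the library with the lowest Gjb6 in each group (1.96, 1.9, 5.35 and 6.01 RPKM), which is also the lowest of its group for Aldh1a1 and Tsc22d3. These were picked for following Gjb6 in the same libraries.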

How the data were processed

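RNA-seq libraries of striatal ribosome pull-downs and unbound RNA were deposited by the authors as RPKM, in a table of 20 libraries and a table of 15. Tools listed without roles in the submitters' processing notes are TopHat2 2.1.0, HTSeq 0.6.0, bcl2fastq and DESeq2, with the build mm9; strand use, gene lengths and the library size behind the RPKM are not given in the sources used here. Of 22707 lines in the larger table, 147 hold no values. Column headings give only groups; libraries are numbered by their place within a group. There were 0 value columns outside these groups. 1 sample of single nuclei was not analysed here.

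Values were fitted as log2(RPKM + 1), not rescaled, with limma 3.58.1 (trend, R 4.3.3), for genes whose mean reached 1 RPKM in the fitted libraries. Comparisons within a fraction were fitted on all groups of that fraction in the table, and comparisons between fractions on all groups of the table. Groups outside a comparison thus shared in the spread behind its errors and p-values. Tests were two-sided, with Benjamini-Hochberg adjustment over all genes tested and calls under 0.05. Errors of log2 changes are standard errors, and errors of levels are SDs. Whole reads were recovered from the steps between RPKM values, within 0.0001 reads for 100% of 18090 and 18102 genes, and used for depth and for a voom alternative. Such reads carry no molecular identifiers, so depth speaks to counting error only. The fits were tested on simulated data. The members and gene lists were chosen with earlier results of these data known. Of each further astrocyte list, up to 4 called genes with the smallest p were named per comparison, as were the first 2 genes of other cell type lists and the 5 genes closest to the members; some genes these rules take are not reported here. Alternatives were pseudocounts of 0.1 and 0.5, no filter or a filter of 5 RPKM, quantile and size factor scaling, voom, only the groups compared, and each library left out. Promoters are RefSeq windows on GRCm38.p6.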

Additional observations from a re-analysis of the deposited data

Results flagged for a closer look

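In the control unbound RNA of the D1 line, 1 library had 1.95 RPKM of Aldh1l1 while the other 3 lay between 1.67 and 1.71 RPKM, a gap of 0.878 of the range of the group. It was 1 of 30 groups of 4 libraries examined over the 10 genes, and chance marks about 1 in 20 such groups.

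Slc1a3 moved in opposite directions in the 2 kinds of pull-down. It was higher by 0.92 (log2 of RPKM + 1) in the microglial pull-down than in its unbound RNA, where 32.1% of all genes were called higher. Every saline pull-down lay above every saline unbound library, but over all 20 libraries the fractions overlapped. In the D1 neuron pull-down it changed by -1.70 as deposited, in a comparison shifted upwards by the library-size factor. There every control pull-down lay below every control unbound library. The share of all genes without overlap was not counted. The difference between the 2 changes was not tested, because the tables were normalised separately.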

How the results depend on the processing

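The number of members called was within 1.5-fold of the reported number in all 207 alternatives over 13 comparisons, and identical in 204. The exceptions were a filter of 5 RPKM, which left 7 called in the microglial and 8 in the D1 fraction comparison because fewer members were tested, and the fit without the first Chrm4 saline pull-down, with 9 called. Leaving out single libraries gave 9 to 10 called members in the microglial and 10 in each D1 fraction comparison, and 0 in the others. Of 2293 alternative values of single genes, 2122 kept their direction and call, 152 uncalled values changed sign, 14 lost their call and 5 called values reversed. The reversals were in the D1 fraction comparison, where Stat3 was at -0.10 under quantile scaling, -0.27 under size factors and -0.24 in voom, and Amigo2 at -0.12 under size factors and -0.18 in voom; these alternatives remove the shift of the D1 unbound libraries by construction. The calls lost were those of Amigo2 (5 alternatives), Dio2 (5), Fkbp5 (3) and Aldh1l1 (1). Over all genes, the calls for CNO in Chrm3 pull-downs were 5, and 1 without a filter, 18 in voom, 8 with only the groups compared and 0 to 35 without single libraries. For Chrm3 unbound RNA they were 78, and 1, 127, 30 and 8 to 115. For the difference between receptors in unbound RNA they were 6, and 1 without a filter, 3 in voom and 1 to 51 without single libraries. In the D1 fraction comparison they were 9412, and 5867 with a filter of 5 RPKM, 5900 (quantile), 5396 (size factors) and 6044 (voom). The fit with only the groups compared was not run where the fit already held only these groups. No paired analysis was possible because the columns of the deposited tables carry no replicate numbers. Groups of 2 or 3 libraries and as few as 30 reads of Aldh1l1 in a library limit what could be seen in pull-downs.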

Other observations

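The Chrm4 CNO libraries showed the widest summed levels of ependymal and choroid plexus markers, a cell class that borders the striatum. The 9 markers of this list summed to 7.07 and 71.7 RPKM in the 2 pull-downs, against 4.33 to 15.5 RPKM in the other microglial pull-downs. They summed to 40.8 and 305 RPKM in the 2 unbound libraries, against 14.6 to 36.3 RPKM in the other unbound libraries of these mice. The markers of this list did not move as one. In unbound RNA the 5 tested had a median change after CNO of 0.14, with a range of -0.16 to 3.49. In pull-downs the 2 tested were at -1.68 and 3.10. None of them was called. Of the astrocyte genes, 9 of 10 were higher in the second of the 2 CNO libraries than in the first in each fraction, with Gjb6 the exception in the pull-downs and Slc1a2 in the unbound RNA. The second libraries of the 2 fractions need not come from the same sample. In Chrm4 saline unbound RNA 8 members were also higher in 1 of the 2 libraries, where the ependymal and choroid sums were 15.9 and 16.7 RPKM. Whether the astrocyte genes and the ependymal and choroid markers go together was not tested.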
